A study of Mus musculus with 6 samples.

Results

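The D-type cyclins, the kinases that they activate, and the inhibitors that restrain these kinases were examined in hematopoietic stem cells (HSCs) of WT and *Irf1-/-* mice. The 10 genes were taken by symbol from a table of 26264 genes. They are the CIP/KIP inhibitors *Cdkn1a*, *Cdkn1b*, and *Cdkn1c*, the INK4 inhibitors *Cdkn2c* and *Cdkn2d*, the D cyclins *Ccnd1*, *Ccnd2*, and *Ccnd3*, and the kinases *Cdk4* and *Cdk6*. All 10 passed the filter on low values, a mean normalized count of at least 10 over the libraries.

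Most HSCs of the adult bone marrow rest outside the cell cycle. A resting cell enters the cycle when D cyclins, made in response to growth signals, bind CDK4 and CDK6 and start the phosphorylation of the retinoblastoma (RB) proteins, which releases E2F factors to drive the genes of S phase. INK4 inhibitors bind CDK4 and CDK6 themselves, whereas CIP/KIP inhibitors bind cyclin-CDK complexes more broadly, and p57, the product of *Cdkn1c*, is well known for its part in keeping HSCs at rest.

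Bulk RNA-seq was done on untreated HSCs sorted from bone marrow, with 3 WT and 3 *Irf1-/-* female mice at 8 weeks of age and 1 library per mouse. *Irf1* encodes an interferon regulatory transcription factor. The knockout allele, *Irf1 tm1Mak*, is carried in every cell of the mouse, so the marrow around the HSCs lacked IRF1 as well. The paper names the knockout line B6.129S2-*Irf1 tm1Mak*/J, and WT mice were of the C57Bl/6 strain. Any difference in strain background cannot be told apart from genotype. Libraries are named by the replicate numbers 2, 3, and 4, which both genotypes use. Between 43138521 and 59658080 reads were counted on genes per library, and values are the authors' normalized counts, that is, reads divided by a size factor of the library. In bulk libraries, fewer cells of a kind and less RNA per cell cannot be told apart.

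The targeted gene *Irf1* had 10122, 11120, and 12057 normalized counts in WT replicates 2, 3, and 4 and 9267, 9524, and 9287 in the *Irf1-/-* replicates. Every *Irf1-/-* library was below every WT library, but reads on the gene were still counted, and the difference of −0.24 on the log2 scale (SE 0.088) missed the adjusted threshold in limma (adjusted *P* = 0.170). The genotype of each library is therefore taken from the labels. Of the markers of HSCs, all 10 were counted in every library, led by *Kit*, and *Fgd5* was at 3918, 3818, and 3522 normalized counts in WT and at 6752, 6881, and 6387 in *Irf1-/-* HSCs. *Fgd5* rose by 0.83 on the log2 scale (SE 0.087, adjusted *P* = 9.13e-05, limma). *Procr* was also higher and *Ly6a* lower, at log2 fold changes of 0.52 and −0.43 (adjusted *P* = 0.0112 and 0.0245, limma). *Ly6a* missed the threshold without *Irf1-/-* replicate 2 (adjusted *P* = 0.115, limma), without *Irf1-/-* replicate 4 (0.111), and without WT replicate 3 (0.0772). Without a trend in the prior variance, 0 HSC markers passed in limma (adjusted *P* = 0.0511 for *Fgd5*, 0.227 for *Procr*, and 0.262 for *Ly6a*, the highest over the alternatives, whose lowest were 2.29e-16, 7.65e-05, and 0.00111), and 5 were at an unadjusted *P* under 0.05. *Ly6a* encodes Sca-1, one of the proteins used for the sort.

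Fold changes are *Irf1-/-* over WT on the scale of log2(normalized count + 1), and to be called a gene had to pass both an adjusted *P* of 0.05 in limma and a log2 fold change of 0.58 in either direction. None of the 10 genes was called by limma (0 of 10, against 1.91% of the 17404 genes tested), and 0 had an adjusted *P* under 0.05 at any size (3.22% of all tested genes). At an unadjusted *P* under 0.05, limma had 5 of the 10 (16.5% of all tested genes). This count was 2 without a trend in the prior variance (12.2% of all tested genes). It was also 2 without *Irf1-/-* replicate 4 and 3 without *Irf1-/-* replicate 2 or WT replicate 3. After median centring it was 4, and with the replicate number as a block it was 6. The share of all tested genes at an unadjusted *P* was not counted for these fits, so these counts have no background. At an adjusted *P* under 0.05 in limma that share ranged from 1.32%, without *Irf1-/-* replicate 4, to 6.18%, with the block. edgeR called 0 (1.88% of all tested genes) and also had 5 at an unadjusted *P* under 0.05 (16.6%), and DESeq2 without a prior on the fold change called 1, which was *Cdkn1a* (3.85% of the 13094 genes to which it gave an adjusted *P*). DESeq2 with a prior called 0 (2.31%) and had 2 at an adjusted *P* under 0.05, *Cdkn1a* and *Cdk6*, against 9.75% of those genes. For 4 of the 10, all 3 libraries of one genotype lay on one side of the other 3, as they did for 19.9% of all tested genes. These were *Cdkn1a* and *Cdkn1c*, higher in *Irf1-/-* HSCs, and *Cdk4* and *Cdk6*, lower. After quantile normalization *Cdk6* overlapped, and this count was 6 without *Irf1-/-* replicate 3, 7 without WT replicate 2, and 6 without WT replicate 4, where 34.8%, 26.5%, and 38% of all tested genes did not overlap. The median log2 fold change of the 10 was −0.12, and that of all tested genes was −0.0028.

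*Cdkn1a* encodes p21, a CIP/KIP inhibitor that p53 induces after DNA damage. Its normalized counts were 245, 175, and 144 in WT replicates 2, 3, and 4 and 287, 351, and 312 in *Irf1-/-* replicates 2, 3, and 4. The genotypes did not overlap, with WT replicate 2 the nearest to the *Irf1-/-* libraries. The means were 188 ± 51.8 (SD, *n* = 3) in WT and 317 ± 32.2 in *Irf1-/-* HSCs. Its log2 fold change of 0.78 (95% interval 0.27 to 1.29) was the largest among the 10 genes in size and did not pass the adjusted threshold in limma (adjusted *P* = 0.1). DESeq2 gave an adjusted *P* of 0.0267, in a range from 0.0267 to 0.29 over the 17 alternatives. Between 134 and 406 reads per library stood behind these values.

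*Cdkn1b* encodes p27, the CIP/KIP inhibitor that accumulates in resting cells mostly by protein stability. It had 483, 310, and 360 normalized counts in WT and 411, 376, and 383 in *Irf1-/-* HSCs. The *Irf1-/-* libraries all lay inside the range of the WT libraries, whose highest value was replicate 2. The difference was 0.045 on the log2 scale (95% interval −0.37 to 0.46, adjusted *P* = 0.951, limma) and turned to −0.018 after quantile normalization and to −0.098 without WT replicate 3, and it was 0.22 without WT replicate 2.

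*Cdkn1c*, an imprinted gene, encodes p57. It had 3078, 2699, and 2901 normalized counts in WT and 3157, 3589, and 3332 in *Irf1-/-* HSCs. Every *Irf1-/-* library was above every WT library, with *Irf1-/-* replicate 2 and WT replicate 2 close to each other. The difference was 0.22 on the log2 scale (95% interval 0.0094 to 0.42, adjusted *P* = 0.280, limma). Of its 7 listed neighbours in the imprinted domain, 6 were tested. In limma 0 passed an adjusted *P* of 0.05 and 0 an unadjusted one, and by DESeq2 the counts were 0 and 1 (12.7% of all genes were at an unadjusted *P* under 0.05 there; edgeR 0 and 0). Their median log2 fold change was −0.040. *Cd81*, the most abundant of them, had 21789, 22573, and 19239 normalized counts in WT and 20104, 23430, and 19388 in *Irf1-/-* HSCs, with overlap. Its log2 fold change of −0.017 turned positive after quantile normalization (0.047) and when *Irf1-/-* replicate 2 (0.011), *Irf1-/-* replicate 4 (0.037), WT replicate 2 (0.0043), or WT replicate 3 (0.030) was left out. Leaving out *Irf1-/-* replicate 3 gave −0.099, and leaving out WT replicate 4 gave −0.085. *Kcnq1* had at most 4.32 normalized counts in any library and was not tested.

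*Cdkn2c* encodes p18, an INK4 inhibitor. It had 1285, 1333, and 1082 normalized counts in WT and 788, 1173, and 785 in *Irf1-/-* HSCs. *Irf1-/-* replicates 2 and 4 were below all WT libraries, whereas replicate 3 lay within the WT range. On the log2 scale the difference was −0.45 (95% interval −0.80 to −0.10, adjusted *P* = 0.166, limma). Without *Irf1-/-* replicate 3 it was −0.64 and *Cdkn2c* was called (adjusted *P* = 0.0338, limma), in a range of adjusted *P* from 0.0338 to 0.489 over the alternatives. *Cdkn2d*, which encodes the INK4 inhibitor p19, had 4564, 4995, and 4984 normalized counts in WT and 4186, 4694, and 4477 in *Irf1-/-* HSCs. *Irf1-/-* replicate 3 lay above WT replicate 2, and the genotypes overlapped. The log2 fold change was −0.12 (95% interval −0.31 to 0.068, adjusted *P* = 0.568, limma) and −0.079 without *Irf1-/-* replicate 2. The other INK4 genes, *Cdkn2a* and *Cdkn2b*, had at most 1.13 and 16.4 normalized counts in any library, were below the filter, and were not tested.

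The D cyclins showed overlap between the genotypes in each case. *Ccnd1*, the D cyclin with the fewest normalized counts here, had 687, 978, and 935 in WT and 676, 791, and 923 in *Irf1-/-* HSCs. Replicate 2 was the lowest library in both genotypes. Its log2 fold change was −0.12 (95% interval −0.47 to 0.24, adjusted *P* = 0.813, limma). Single libraries moved this value, to −0.0039 and −0.23 without *Irf1-/-* replicates 2 and 4 and to −0.28, −0.021, and −0.053 without WT replicates 2, 3, and 4.

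*Ccnd2*, a D cyclin induced by cytokine signals in blood cells, had 21700, 22207, and 20668 normalized counts in WT and 18908, 22753, and 21550 in *Irf1-/-* HSCs. *Irf1-/-* libraries held both the lowest value, in replicate 2, and the highest, in replicate 3. The log2 fold change of −0.034 had a 95% interval of −0.23 to 0.16 (adjusted *P* = 0.916, limma), and it was 0.037 after quantile normalization and 0.042 without *Irf1-/-* replicate 2. It was −0.092 and −0.053 without *Irf1-/-* replicates 3 and 4 and −0.012 and −0.063 without WT replicates 3 and 4, and −0.066 after median centring. *Ccnd3*, the D cyclin known for its role in lymphoid and erythroid precursors, had 22215, 25003, and 18012 normalized counts in WT and 18325, 22100, and 17261 in *Irf1-/-* HSCs. Replicate 4 was the lowest and replicate 3 the highest in both genotypes. The log2 fold change was −0.17 (95% interval −0.44 to 0.092, adjusted *P* = 0.561, limma). It was −0.28 and −0.099 without *Irf1-/-* replicates 3 and 4, −0.065 and −0.30 without WT replicates 3 and 4, and −0.11 after quantile normalization.

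The kinases were lower in all *Irf1-/-* libraries. *Cdk4* had 27012, 28790, and 25802 normalized counts in WT and 21823, 24723, and 22109 in *Irf1-/-* HSCs. The highest *Irf1-/-* library, replicate 3, was just below the lowest WT library, replicate 4. The means were 27201 ± 1503 (SD, *n* = 3) and 22885 ± 1598, with a log2 fold change of −0.25 (95% interval −0.44 to −0.059, adjusted *P* = 0.162, limma). Over the alternatives the adjusted *P* in limma ranged from 0.0338, with the replicate number as a block, to 0.507, without *Irf1-/-* replicate 4. The mice were not treated as paired.

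*Cdk6*, the D cyclin kinase that is known to be kept low in the most dormant HSCs, had 5760, 7065, and 6481 normalized counts in WT and 5489, 3794, and 5267 in *Irf1-/-* HSCs. *Irf1-/-* replicate 3 stood well below the others, and *Irf1-/-* replicate 2 was just below WT replicate 2. The means were 6435 ± 653 (SD, *n* = 3) and 4850 ± 922. The log2 fold change was −0.42 (95% interval −0.70 to −0.14, adjusted *P* = 0.103, limma) and −0.25 without *Irf1-/-* replicate 3. DESeq2 gave an adjusted *P* of 0.0302, in a range from 0.0302 to 0.427 over the alternatives.

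**Figure D1:**
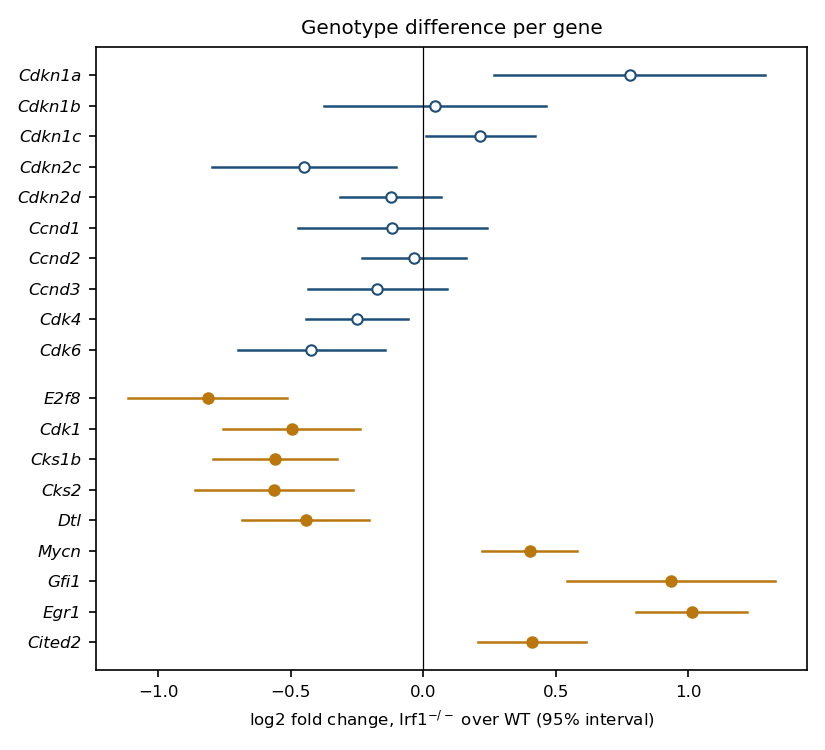
Log2 fold change (horizontal axis, *Irf1-/-* over WT) with its unadjusted 95% interval from limma for the 10 genes (blue) and for genes of the surrounding lists (brown), filled where the adjusted *P* was under 0.05. The intervals of *Cdkn1a*, *Cdkn1c*, *Cdkn2c*, *Cdk4*, and *Cdk6* leave out 0, and no blue point is filled.

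Levels of different genes were set side by side per kilobase of the longest transcript. In WT HSCs *Cdk4* was highest, at 13250 ± 732 normalized counts per kb (SD, *n* = 3), followed by *Ccnd3* at 10290 ± 1665. *Cdkn2d* (3814 ± 193) and *Ccnd2* (3776 ± 138) came next and did not differ beyond their spread. *Cdk6* followed at 1723 ± 175 per kb and *Cdkn1c* at 1498 ± 98.1, with ranges that overlapped. The lower levels were those of *Cdkn2c* (499 ± 53.9), *Ccnd1* (232 ± 42.0), *Cdkn1a* (98.4 ± 27.1), and *Cdkn1b* (84.5 ± 19.6), and the last pair overlapped as well. In *Irf1-/-* HSCs the order was the same except that *Ccnd2* (3696 ± 345) stood above *Cdkn2d* (3503 ± 200) and *Cdkn1c* (1740 ± 113) above *Cdk6* (1299 ± 247). With the median transcript length in place of the longest, both orders were the same. *Cdkn1a* and *Cdkn1b* did not overlap in *Irf1-/-* HSCs (165.8 ± 16.9 and 85.7 ± 4.14).

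Within each role, a single gene made up most of the transcripts per kb. *Cdkn1c* was 89.2% ± 1.81 (SD, *n* = 3) of the CIP/KIP sum in WT and 87.4% ± 0.165 in *Irf1-/-* HSCs. The share of *Cdkn1a* in that sum was 7.02%, 5.87%, and 4.55% in WT replicates 2, 3, and 4 and 8.01%, 8.65%, and 8.29% in *Irf1-/-* replicates, without overlap. With the median transcript length this share was 14.1%, 12.0%, and 9.40% in WT and 15.9%, 17.1%, and 16.4% in *Irf1-/-* HSCs, again without overlap. *Cdkn2d* was 88.4% ± 1.37 of the INK4 sum in WT and 90.5% ± 1.67 in *Irf1-/-* HSCs. *Ccnd3* was 71.8% ± 2.71 of the D cyclin sum in WT and 69.9% ± 2.49 in *Irf1-/-* HSCs, and *Ccnd1* was at most 2.02% of it in any library. *Cdk4* was 88.5% ± 0.884 of the kinase sum in WT and 89.5% ± 2.38 in *Irf1-/-* HSCs.

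The summed level of CIP/KIP inhibitors over that of the kinases, both per kb, was 0.124, 0.0978, and 0.116 in WT replicates 2, 3, and 4 and 0.155, 0.163, and 0.162 in *Irf1-/-* replicates. All 3 *Irf1-/-* ratios were above all 3 WT ratios. *Cdkn1c* and *Cdk4* make up most of these sums and already lay apart in opposite directions. The gap in the ratio restates those differences and adds no evidence. With the median transcript length the ratio was lower in every library, at 0.0655, 0.0510, and 0.0596 in WT and 0.0829, 0.0856, and 0.0865 in *Irf1-/-* HSCs, and the genotypes did not overlap there either. The ratio of all 5 inhibitors to the D cyclins was 0.410, 0.377, and 0.485 in WT and 0.451, 0.429, and 0.477 in *Irf1-/-* HSCs, and here WT replicate 4 was the highest library.

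**Figure D2:**
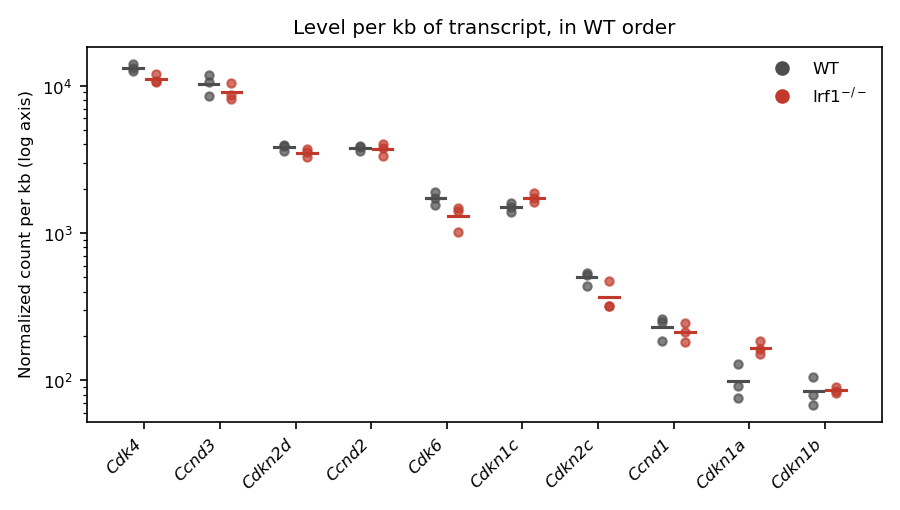
Normalized count per kb of the longest transcript (vertical log axis) of the 10 genes in WT order, with a point per library and a line at the mean of WT (grey) and *Irf1-/-* (red) HSCs. *Cdk4* and *Ccnd3* are the highest and *Cdkn1a* and *Cdkn1b* the lowest in both genotypes.

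The patterns of the 10 genes over the 6 libraries were compared by Pearson's *r* of log2 values, as a description that contains the difference between genotypes. *Cdkn2c* and *Cdk4* were the most alike pair (*r* = 0.954), followed by *Cdkn1a* and *Cdkn1c* (0.888). *Cdk6* was most unlike *Cdkn1c* (−0.959) and *Cdkn1a* (−0.841). Among 12069 genes with a mean of at least 100, the closest to *Cdkn1a* were *Stk4* (0.9998) and *Atp7a* (0.9997), and the closest to *Cdkn1c* were *Ubl7* (0.9995) and *Kif3a* (0.994). *Qser1* (0.985) and *Agrn* (0.969) were closest to *Cdkn1b*, *Coro2a* (0.997) and *Ssna1* (0.996) to *Cdkn2c*, and *Samm50* (0.988) and *Mrpl13* (0.988) to *Cdkn2d*. For the cyclins these were *Sdhaf3* (0.989) and *Rpl3* (0.987) with *Ccnd1*, *F8a* (0.997) and *Dnttip2* (0.992) with *Ccnd2*, and *Traf2* (0.998) and *Get3* (0.997) with *Ccnd3*. *Pbrm1* (0.997) and *Sh3glb1* (0.997) were closest to *Cdk4*, and *Zbtb6* (0.995) and *Tvp23a* (0.990) to *Cdk6*. Each closest gene was picked as the highest among 12069 over only 6 libraries, so the size of *r* is no evidence of shared control.

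Downstream of the D cyclins, the RB family and the E2F factors with their partners were represented by 13 genes, of which 1 was lower and 0 were higher at an adjusted *P* under 0.05 in limma. Their median log2 fold change was −0.16, and DESeq2 without a prior had 6 at an adjusted *P* under 0.05, 5 lower and 1 higher. Over all genes DESeq2 without a prior had 9.79% at an adjusted *P* under 0.05, edgeR 3.31%, and limma 3.22%. The share of all tested genes in limma also moved with single libraries, to 1.68%, 2.77%, and 1.32% without *Irf1-/-* replicates 2, 3, and 4 and to 1.75%, 1.57%, and 5.70% without WT replicates 2, 3, and 4. It was 4.51% after quantile normalization and 3.70% after median centring. In limma the list had 4 without WT replicate 4, 3 after quantile normalization, and 2 after median centring. The gene higher in DESeq2 was *Rbl2*, which encodes p130, with 8591, 9625, and 8730 normalized counts in WT and 11143, 11294, and 10427 in *Irf1-/-* HSCs. The genotypes of *Rbl2* did not overlap (log2 fold change 0.29, adjusted *P* = 0.0897, limma). The lower gene, *E2f8*, encodes an atypical E2F that represses E2F targets. It had 2374, 2619, and 1906 normalized counts in WT and 1543, 1173, and 1207 in *Irf1-/-* HSCs. The genotypes did not overlap, and the fall of 0.81 on the log2 scale (SE 0.14, adjusted *P* = 0.0058, limma) passed the threshold with any single library left out (adjusted *P* up to 0.0291). *Tfdp1*, the dimer partner of E2Fs and the most abundant of the list, had 13913, 14969, and 11195 normalized counts in WT and 10371, 11291, and 10089 in *Irf1-/-* HSCs. *Irf1-/-* replicate 3 lay just above WT replicate 4 (log2 fold change −0.33, adjusted *P* = 0.124, limma), and without WT replicate 4 the adjusted *P* was 0.0133. Of the 7 subunits and partners of the DREAM and MuvB complexes, which repress or activate cell cycle genes, limma found 0 at an adjusted and 3 at an unadjusted *P* under 0.05, all lower (median −0.17), and at an adjusted *P* edgeR found 0 and DESeq2 without a prior 2. In limma 1 passed without *Irf1-/-* replicate 3, 2 without WT replicate 4, and 2 after median centring. The most abundant, *Rbbp4*, had 20653, 22624, and 20584 normalized counts in WT and 18685, 20741, and 17609 in *Irf1-/-* HSCs, with overlap at *Irf1-/-* replicate 3.

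Of the 15 cyclins, kinases, and regulators that act after the D cyclins, all 15 had a log2 fold change below 0 (median −0.53), against 8776 of the 17404 tested genes. At an adjusted *P* under 0.05 in limma, 3 of the list were lower (9 by DESeq2 without a prior). In limma this count was 1 without *Irf1-/-* replicate 2 or WT replicate 3, 0 without *Irf1-/-* replicate 4 or WT replicate 2, and 9 without WT replicate 4. Of all tested genes 3.22% passed with every library, 1.68% and 1.57% in the first pair of these fits, 1.32% and 1.75% in the next, and 5.70% without WT replicate 4. *Cks1b*, a small CDK-binding protein that also helps to degrade p27, had 5813, 5577, and 5178 normalized counts in WT and 4172, 3977, and 3161 in *Irf1-/-* HSCs. The genotypes lay far apart, with *Irf1-/-* replicate 4 the lowest. It fell by 0.56 on the log2 scale (SE 0.11, adjusted *P* = 0.0125, limma), and without *Irf1-/-* replicate 4 or WT replicate 2 the adjusted *P* was 0.0700 and 0.0558. *Cks2*, its paralog, had 2335, 2038, and 1835 normalized counts in WT and 1559, 1538, and 1133 in *Irf1-/-* HSCs. *Irf1-/-* replicate 4 was again the lowest library and WT replicate 4 the lowest of WT. *Cks2* fell by 0.56 (SE 0.14, adjusted *P* = 0.0427, limma) and kept an adjusted *P* under 0.05 in 1 of the 6 fits with a library left out, that without WT replicate 4. It was 0.0672, 0.0506, and 0.197 without *Irf1-/-* replicates 2, 3, and 4 and 0.176 and 0.113 without WT replicates 2 and 3 in limma. *Cdk1*, the kinase of mitotic entry, had 4881, 5058, and 4036 normalized counts in WT and 3505, 3660, and 2771 in *Irf1-/-* HSCs. Here too the genotypes did not overlap. *Cdk1* fell by 0.50 (SE 0.12, adjusted *P* = 0.0392, limma), which held without *Irf1-/-* replicate 3 or WT replicate 4 and was lost when *Irf1-/-* replicate 2 (0.0851), *Irf1-/-* replicate 4 (0.196), WT replicate 2 (0.135), or WT replicate 3 (0.152) was left out. *Wee1*, the kinase that inhibits CDK1 and the most abundant of the list, had 8925, 9961, and 7003 normalized counts in WT and 7421, 9466, and 7166 in *Irf1-/-* HSCs, with overlap. Its log2 fold change of −0.10 was −0.052, −0.23, and −0.027 without *Irf1-/-* replicates 2, 3, and 4, 0.0088 and −0.25 without WT replicates 3 and 4, and −0.058 after quantile normalization.

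The kinase that activates CDKs and the chaperone that folds CDK4 and CDK6 were covered by 4 genes. Of these, limma found 0 at an adjusted and 1 at an unadjusted *P* under 0.05, and DESeq2 without a prior 1 at an adjusted *P* (edgeR 0), as did limma after quantile normalization or median centring. *Cdc37*, the chaperone, had 17806, 19347, and 17499 normalized counts in WT and 15307, 18344, and 16155 in *Irf1-/-* HSCs, with *Irf1-/-* replicate 3 inside the WT range (log2 fold change −0.14, or −0.080 without *Irf1-/-* replicate 2 and −0.21 without *Irf1-/-* replicate 3). Of 18 genes for the turnover of D cyclins and CDK inhibitors, 1 was lower and 0 were higher at an adjusted *P* under 0.05 in limma (median −0.093). This was *Dtl*, the substrate receptor that directs p21 to degradation in S phase. It had 8042, 9502, and 7014 normalized counts in WT and 6279, 6307, and 5386 in *Irf1-/-* HSCs. The genotypes did not overlap, and *Dtl* fell by 0.44 on the log2 scale (SE 0.11, adjusted *P* = 0.0470, limma). The call at 0.05 held in 1 of the 6 fits with a library left out, that without WT replicate 4. Its adjusted *P* in limma was 0.107, 0.0659, and 0.230 without *Irf1-/-* replicates 2, 3, and 4 and 0.119 and 0.183 without WT replicates 2 and 3. With no filter on low values it was 0.0574 in limma, within a range over all alternatives of 0.00398 to 0.344, and without WT replicate 4 the list had 2 genes under 0.05. *Ddb1*, its partner and the most abundant of the list, had 31113, 32527, and 29728 normalized counts in WT and 28797, 29805, and 28072 in *Irf1-/-* HSCs, with overlap. Its log2 fold change of −0.11 was 0.012 after quantile normalization.

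Of 26 factors that are known to control transcription of the 10 genes, 2 were higher and 0 were lower at an adjusted *P* under 0.05 in limma, with a median of 0.0073. In limma the count was 0 without *Irf1-/-* replicate 2, 1 without *Irf1-/-* replicate 4 or WT replicate 2, and 4 after quantile normalization. *Gfi1*, a repressor that restrains HSC proliferation, had 847, 736, and 547 normalized counts in WT and 1630, 1383, and 1058 in *Irf1-/-* HSCs. The lowest *Irf1-/-* library, replicate 4, was above the highest WT library. *Gfi1* rose by 0.94 (SE 0.18, adjusted *P* = 0.0126, limma), and by 0.79 without *Irf1-/-* replicate 2 (adjusted *P* = 0.0769). *Mycn*, a MYC family factor and the most abundant of the list over all libraries, had 22886, 23965, and 21857 normalized counts in WT and 30484, 30400, and 29841 in *Irf1-/-* HSCs. The libraries of each genotype were close together and far from the other genotype. *Myc*, which had the higher mean of the pair in WT, had 25700, 30352, and 21152 normalized counts in WT and 24898, 28608, and 26935 in *Irf1-/-* HSCs, with overlap. *Mycn* rose by 0.40 (SE 0.083, adjusted *P* = 0.0177, limma), with an adjusted *P* of 0.0681 without *Irf1-/-* replicate 2, 0.105 without replicate 4, and 0.0924 without WT replicate 2.

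Of 21 genes with known roles in HSC quiescence, 2 were higher and 0 were lower at an adjusted *P* under 0.05 in limma, with a median of 0.10. *Egr1*, a transcription factor that keeps HSCs at rest and in their niche, had 2744, 3234, and 2778 normalized counts in WT and 6247, 5935, and 5471 in *Irf1-/-* HSCs. The genotypes were separated by a wide gap. *Egr1* rose by 1.01 (SE 0.097, adjusted *P* = 3.89e-05, limma) and kept an adjusted *P* under 0.05 with any single library left out. *Cited2*, a transcriptional coregulator needed for HSC maintenance, had 9619, 10235, and 9242 normalized counts in WT and 14572, 12469, and 11782 in *Irf1-/-* HSCs. All *Irf1-/-* libraries were above all WT libraries. *Cited2* rose by 0.41 (SE 0.095, adjusted *P* = 0.0318, limma), with an adjusted *P* of 0.137, 0.0515, and 0.0525 when *Irf1-/-* replicates 2, 3, and 4 were left out in turn and of 0.113 without WT replicate 2. DESeq2 without a prior had 7 of the list at an adjusted *P* under 0.05, 6 higher and 1 lower. In limma the count was 1 without *Irf1-/-* replicate 2 or WT replicate 2 and 4 after quantile normalization.

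The genes of S phase and of mitosis, which E2F and MuvB complexes control, had log2 fold changes below 0 for all 17 of 17 genes in either list. Of all 17404 tested genes, 8776 were below 0. The mitosis list shares members with the list of later cyclins and kinases and with the turnover list. In S phase 2 were lower at an adjusted *P* under 0.05 in limma (median −0.43), *Tyms* and *Cdt1*. edgeR had 3, which were *Tyms*, *Mcm6*, and *Mcm7*, and DESeq2 without a prior 14. In limma the count was 1 without *Irf1-/-* replicate 2 or 3, 0 without *Irf1-/-* replicate 4, WT replicate 2, or WT replicate 3, and 14 without WT replicate 4. It was 1 with a pseudocount of 0.5 or with no filter, 8 after quantile normalization, and 11 after median centring. Over all tested genes the share was 3.22% with every library, 1.68%, 2.77%, and 1.32% without *Irf1-/-* replicates 2, 3, and 4, 1.75%, 1.57%, and 5.70% without WT replicates 2, 3, and 4, 3.15% and 2.13% with that pseudocount and with no filter, and 4.51% and 3.70% after quantile normalization and median centring. *Tyms*, which makes thymidylate, had 5579, 5282, and 4497 normalized counts in WT and 4001, 3999, and 3200 in *Irf1-/-* HSCs. *Cdt1*, a licensing factor, had 5707, 6178, and 5120 in WT and 4672, 4364, and 3612 in *Irf1-/-* HSCs. Both were without overlap, with replicate 4 the lowest library of each genotype, and both kept an adjusted *P* under 0.05 only without WT replicate 4 among the 6 fits with a library left out. In limma that of *Tyms* was 0.0769, 0.0515, and 0.218 without *Irf1-/-* replicates 2, 3, and 4 and 0.178 and 0.135 without WT replicates 2 and 3. That of *Cdt1* was 0.0584, 0.0732, and 0.254 and then 0.141 and 0.182 in the same order. *Cdt1* also missed the threshold in edgeR (adjusted *P* = 0.0519) and in limma with a pseudocount of 0.5 (0.0513) or with no filter (0.058), within a range over all alternatives of 0.00613 to 0.332. *Tyms* fell by 0.46 (SE 0.11, adjusted *P* = 0.0422, limma) and *Cdt1* by 0.43 (SE 0.11, adjusted *P* = 0.0486, limma). *Mcm6*, the most abundant of the list, had 45241, 51654, and 37441 normalized counts in WT and 33907, 35047, and 31598 in *Irf1-/-* HSCs (adjusted *P* = 0.0707, limma, or 0.00764 without WT replicate 4). In mitosis 5 were lower at an adjusted *P* under 0.05 in limma (median −0.53), and 4 of these were called (*Top2a*, *Mki67*, *Aurkb*, and *Tpx2*), with 5 at an adjusted *P* under 0.05 by edgeR and 11 by DESeq2 without a prior. In limma the count was 2 without *Irf1-/-* replicate 2, 0 without *Irf1-/-* replicate 4, WT replicate 2, or WT replicate 3, and 12 without WT replicate 4, beside the same shares of all tested genes as for S phase. The 4 called stand against 1.91% of all tested genes. *Top2a*, which untangles chromosomes, had 13177, 12859, and 9810 normalized counts in WT and 7874, 8285, and 5166 in *Irf1-/-* HSCs. *Mki67*, the proliferation antigen Ki-67, had 5599, 4960, and 3949 in WT and 3090, 3863, and 2278 in *Irf1-/-* HSCs. The kinase *Aurkb* had 5919, 6015, and 4624 in WT and 4272, 3838, and 2683 in *Irf1-/-* HSCs. *Kif11*, a kinesin of the spindle, had 6581, 6234, and 5191 in WT and 4419, 4637, and 3161 in *Irf1-/-* HSCs. *Tpx2*, which encodes a spindle assembly factor, had 5851, 5946, and 4261 in WT and 3907, 4010, and 2780 in *Irf1-/-* HSCs. In each of these *Irf1-/-* replicate 4 was the lowest library, and WT replicate 4 was the lowest of WT. *Kif11* fell by 0.57 on the log2 scale, *Aurkb* by 0.63, *Mki67* by 0.67, and *Top2a* by 0.77 (adjusted *P* = 0.0356, 0.0368, 0.0427, and 0.0177, limma). *Tpx2* fell by 0.59 (adjusted *P* = 0.048, limma). Without *Irf1-/-* replicate 4 the adjusted *P* of *Kif11*, *Aurkb*, *Mki67*, and *Top2a* was 0.148, 0.141, 0.166, and 0.0525, without WT replicate 2 it was 0.127, 0.112, 0.146, and 0.0571, and without WT replicate 3 it was 0.116, 0.134, 0.127, and 0.0652. It was also over 0.05 without *Irf1-/-* replicate 2 for *Kif11* (0.0683) and *Mki67* (0.125) and without *Irf1-/-* replicate 3 for *Aurkb* (0.0571). That of *Tpx2* in limma was 0.0875 and 0.205 without *Irf1-/-* replicates 2 and 4, 0.156 and 0.174 without WT replicates 2 and 3, 0.0513 with a pseudocount of 0.5, and 0.0546 with no filter, within a range over the alternatives that leave the mice unpaired of 0.00262 to 0.368. Without a trend in the prior variance, limma gave 0 genes of the cell cycle, transcription factor, and quiescence lists an adjusted *P* under 0.05 (0.23% of all tested genes), with values from 0.0511 for *Egr1* to 0.368 for *Tpx2* among the named genes of these lists that passed with the trend. At an unadjusted *P* under 0.05, limma had 16.5% of all tested genes with the trend and 12.2% without it. Of the S phase list it had 17 with the trend and 11 without, and of mitosis 17 and 7. The later cyclins and kinases had 12 and 7, the quiescence list 9 and 7, and the transcription factors 8 and 5. The RB and E2F list had 6 and 3, the DREAM list 3 and 2, and the turnover list 3 and 1. The CDK-activating kinase and chaperone list had 1 in both fits. In S phase, mitosis, and the later cyclins and kinases, 12, 10, and 9 genes lay lower without overlap and 0 higher. Of all tested genes 19.9% did not overlap.

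Markers of other marrow cells were counted to see which moved with the genotype. Of 6 megakaryocyte markers, 2 were lower at an adjusted *P* under 0.05 in limma (*Pf4* and *Gp1bb*), and their summed normalized count was 58848, 71525, and 56822 in WT and 51516, 33795, and 46280 in *Irf1-/-* HSCs, led by *Itga2b*. *Irf1-/-* replicate 3, which was lowest for *Cdk6*, was lowest here too, and WT replicate 3 was highest for both. Both missed the threshold in limma without a trend in the prior variance (adjusted *P* = 0.238 for *Pf4* and 0.187 for *Gp1bb*), as did every gene of the other marker lists. Over the alternatives that leave the mice unpaired, the adjusted *P* ranged from 0.00108 to 0.238 for *Pf4* and from 2.34e-07 to 0.187 for *Gp1bb*. Of 4 tested erythroid markers 2 were lower (*Klf1* and *Car1*), at a sum of 5370, 4890, and 5633 in WT and 3760, 2257, and 2821 in *Irf1-/-* HSCs, led by *Epor*. *Klf1* missed the threshold in limma when *Irf1-/-* replicate 2 (adjusted *P* = 0.0576), *Irf1-/-* replicate 3 (0.0700), WT replicate 2 (0.119), or WT replicate 3 (0.107) was left out, and *Car1* without *Irf1-/-* replicate 3 (0.0611) or 4 (0.0658). edgeR and DESeq2 each had 1 of the list at an adjusted *P* under 0.05, which was *Klf1*, and gave *Car1* 0.0887 in edgeR and 0.198 in DESeq2 without a prior, within a range over all alternatives of 3.16e-05 to 0.344. The hemoglobin genes *Hba-a1*, *Hbb-bt*, and *Hbb-bs* were listed at 0 in all libraries. The part of these lineage genes in the values of *Cdk6* was not tested. Of 8 tested neutrophil and granulocyte precursor markers 1 was higher (*Prtn3*, also the most abundant), and the sum was 6633, 5187, and 11796 in WT and 8091, 8254, and 10704 in *Irf1-/-* HSCs. *Prtn3* missed the threshold in limma without *Irf1-/-* replicate 2 (adjusted *P* = 0.0610), 3 (0.0501), or 4 (0.169) or WT replicate 3 (0.127). WT replicate 4 stood apart from all other libraries with 2032 normalized counts of *Ltf*, 1246 of *S100a9*, and 1033 of *S100a8*. *Ly6g* was at 46.3 in that library, at 1.07 in *Irf1-/-* replicate 2, and at 0 in the others. The sort was for lineage-negative cells, and its lineage antibodies included some against surface proteins of neutrophils. The same library had the lowest WT values of *Cdkn1a*, *Cdkn2c*, *Ccnd2*, *Ccnd3*, and *Cdk4*, and the part of the neutrophil transcripts in these was not tested. Without it, the log2 fold changes were 0.61, −0.54, −0.063, −0.30, and −0.29. WT replicate 4 was also the lowest WT library for the named genes of S phase and mitosis. In limma the counts of these lists at an adjusted *P* under 0.05 were 2 and 5 with that library (3.22% of all tested genes). They were 14 and 12 without it (5.70%), and the part of the neutrophil transcripts in these counts was not tested.

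Of 6 markers of multipotent progenitors, 1 was higher at an adjusted *P* under 0.05 in limma (*Flt3*), with a sum of 29430, 27535, and 29533 in WT and 28936, 36389, and 31975 in *Irf1-/-* HSCs, led by *Cd34*. *Flt3* missed the threshold in limma without *Irf1-/-* replicate 2 (adjusted *P* = 0.0909), 3 (0.128), or 4 (0.0729) or WT replicate 3 (0.115). *Cd48*, used to exclude progenitors in the sort, was between 257 and 431 in every library. The remaining lists had 0 genes at an adjusted *P* under 0.05 in limma and edgeR, and DESeq2 without a prior had 1 of the T and NK cell markers and 1 of the stromal and endothelial markers. At an unadjusted *P* under 0.05 limma had 0 of 5 tested B cell markers, 1 of 4 tested T and NK cell markers, 0 of 6 monocyte and macrophage markers, 0 of 5 dendritic cell markers, and 2 of 6 stromal and endothelial markers. Their most abundant genes were *Cd79b*, *Nkg7*, *Lyz2*, *Irf8*, and *Pecam1*. Among defining markers of T cells, *Cd3e* was at most 7.89, *Cd8a* at most 2.59, and *Cd3g* at most 12.4 normalized counts in any library. *Cd3d* had 18.1, 24.8, and 52.7 in WT and 22.4, 22.5, and 21.8 in *Irf1-/-* HSCs, with overlap and WT replicate 4 the highest.

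Because *Cdkn1a*, *Cdk4*, and *Cdk6* differed without overlap and *Cdk1*, *Cks1b*, *Cks2*, and *E2f8* fell, the bases around their starts are shown from RefSeq (GRCm38.p6, 250 bases before the start and 50 after), with matches to any searched motif in capitals. Promoters matched 7 of the 10 genes by symbol (not *Cdkn1c*, *Ccnd1*, or *Ccnd2*), with 10 starts among them. The motifs, read on both strands, were the interferon regulatory factor motif (GAAA, any 2 bases, GAAA), the STAT motif TTCNNNGAA, the E2F motifs TTTCGCGC and TTTGGCGC, the cell cycle homology motif TTTGAA of MuvB complexes, and the GC box GGGCGG of Sp1. Of 32851 promoters, 3.44% held the first, 8.30% the STAT motif, 0.813% an E2F motif, 17.9% TTTGAA, and 35.7% a GC box. Of the 14 promoters of mitosis genes 1 held the first, against 0 of 17 in S phase and 0 of 10 among the later cyclins and kinases. The 10 starts of the 7 genes held 0 matches to the first 4 kinds and 7 held a GC box. A match is a description of letters in this window. *Cdkn1a* has a further start upstream of the one shown, whose window held no match.
Cdkn1a, chr17:29093519-29093818, plus strand: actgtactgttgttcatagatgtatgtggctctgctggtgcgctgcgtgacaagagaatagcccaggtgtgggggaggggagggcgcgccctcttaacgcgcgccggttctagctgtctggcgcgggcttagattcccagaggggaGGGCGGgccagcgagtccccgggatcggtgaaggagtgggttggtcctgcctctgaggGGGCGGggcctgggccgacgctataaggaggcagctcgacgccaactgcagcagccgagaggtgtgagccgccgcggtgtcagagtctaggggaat
Cdk4, chr10:127063285-127063584, plus strand: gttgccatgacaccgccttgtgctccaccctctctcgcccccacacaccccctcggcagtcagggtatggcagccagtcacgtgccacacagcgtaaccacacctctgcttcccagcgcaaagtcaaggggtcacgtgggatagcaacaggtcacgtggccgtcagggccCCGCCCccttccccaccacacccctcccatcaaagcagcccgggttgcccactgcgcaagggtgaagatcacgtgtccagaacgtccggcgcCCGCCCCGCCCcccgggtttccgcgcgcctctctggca
Cdk6, chr5:3343643-3343942, plus strand: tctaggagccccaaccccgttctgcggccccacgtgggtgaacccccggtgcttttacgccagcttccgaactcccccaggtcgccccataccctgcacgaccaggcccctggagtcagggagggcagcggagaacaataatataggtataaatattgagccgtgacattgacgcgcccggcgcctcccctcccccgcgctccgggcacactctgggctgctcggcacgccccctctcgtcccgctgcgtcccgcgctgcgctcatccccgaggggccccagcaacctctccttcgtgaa
Cdk1, chr10:69352863-69353162, minus strand: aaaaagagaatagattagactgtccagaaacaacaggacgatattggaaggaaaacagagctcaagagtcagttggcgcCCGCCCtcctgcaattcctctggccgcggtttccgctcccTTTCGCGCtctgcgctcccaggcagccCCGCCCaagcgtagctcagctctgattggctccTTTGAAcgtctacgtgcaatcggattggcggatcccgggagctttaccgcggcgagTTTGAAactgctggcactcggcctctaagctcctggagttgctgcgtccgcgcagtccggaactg
Cks1b, chr3:89418242-89418541, minus strand: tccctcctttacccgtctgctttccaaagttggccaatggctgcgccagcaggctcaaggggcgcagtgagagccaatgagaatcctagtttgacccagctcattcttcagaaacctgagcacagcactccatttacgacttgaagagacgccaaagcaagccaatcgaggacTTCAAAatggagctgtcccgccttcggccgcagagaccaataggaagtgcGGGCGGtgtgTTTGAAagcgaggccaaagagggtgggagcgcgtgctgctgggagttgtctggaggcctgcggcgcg
Cks2, chr13:51644982-51645281, plus strand: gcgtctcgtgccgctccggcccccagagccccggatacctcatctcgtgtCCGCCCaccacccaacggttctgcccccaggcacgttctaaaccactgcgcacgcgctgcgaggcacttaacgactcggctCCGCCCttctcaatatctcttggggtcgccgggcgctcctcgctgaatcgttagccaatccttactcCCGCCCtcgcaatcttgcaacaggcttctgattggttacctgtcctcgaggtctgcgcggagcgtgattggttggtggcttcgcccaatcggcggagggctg
E2f8, chr7:48881547-48881846, minus strand: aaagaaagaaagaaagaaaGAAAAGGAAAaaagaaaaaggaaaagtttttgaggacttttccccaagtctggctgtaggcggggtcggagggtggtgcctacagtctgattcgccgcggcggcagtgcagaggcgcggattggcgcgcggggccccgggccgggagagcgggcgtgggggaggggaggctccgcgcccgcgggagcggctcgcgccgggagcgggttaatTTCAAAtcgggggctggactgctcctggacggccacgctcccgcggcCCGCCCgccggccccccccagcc
The capitals are 2 GC boxes in *Cdkn1a* and 3 in *Cdk4*, of which the last pair overlap by a base, and *Cdk6* has none. *Cdk1* has 1 E2F motif, 2 copies of TTTGAA, and 2 GC boxes, and *Cks1b* has 2 copies of TTTGAA and 1 GC box. *Cks2* has 3 GC boxes, and *E2f8* has 1 interferon regulatory factor motif, 1 TTTGAA, and 1 GC box. Among the genes of mitosis 9 of 14 promoters held TTTGAA and 0 an E2F motif, whereas among those of S phase 2 of 17 promoters held TTTGAA and 6 an E2F motif.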

How the data were processed

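RNA from sorted HSCs was amplified with SMART-Seq v4, without molecular identifiers, and each mouse gave 1 library. Per their methods, the authors used Trim Galore on the reads, HISAT2 for alignment (build mm39 in the submitters' processing notes), and Htseq-count for reads per gene. Versions, annotation, and strand setting are not given in the sources used here. The deposited signal is each gene's count over a size factor from DESeq2. Whole reads were recovered from 100% of values (tolerance 0.02 reads).

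The test was limma 3.58.1 (R 4.3.3) on log2(normalized count + 1), with a trend in the prior variance. It covered 17404 genes whose mean was at least 10, and Benjamini-Hochberg adjustment was made over all of them. On recovered reads, edgeR 4.0.16 called 327 genes and DESeq2 1.42.0 called 504, or 303 with a prior, against 333 in limma. Alternatives were other pseudocounts (0.5 and 5), no filter or a mean of at least 50, no trend, quantile normalization, median centring, a replicate block, the count tests, and leaving out each library. Intervals are unadjusted. Transcript lengths came from GENCODE vM1 by symbol (10 of 10 genes) and promoters from RefSeq (GRCm38.p6), both on other builds than the reads. Figures were drawn with matplotlib 3.10.9.

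Named genes were the 10 genes, *Irf1*, in each pathway or marker list the genes at an adjusted *P* under 0.05 up to the 4 with the smallest *P* and the most abundant gene, and for each of the 10 genes the 2 with the highest *r*. *Kcnq1*, *Cdkn2a*, *Cdkn2b*, *Ltf*, *S100a8*, *S100a9*, *Ly6g*, *Cd48*, *Cd3d*, *Cd3e*, *Cd3g*, *Cd8a*, *Rbl2*, *Myc*, *Mcm7*, *Tpx2*, and the hemoglobin genes were named after their values were seen. Of the genes that the rule names, 1 is not reported here. The genes and lists were chosen with earlier results of these data known. Chi-square per gene between libraries of a genotype was 15 to 27.6, above counting noise, so each library was kept as a replicate.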

Additional observations from a re-analysis of the deposited data

How the results depend on the processing

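Under 17 alternatives, the direction held for *Cdkn1a*, *Cdkn1c*, *Cdkn2c*, *Cdkn2d*, *Ccnd1*, *Ccnd3*, *Cdk4*, and *Cdk6*. *Cdkn1b* turned to −0.0181 and *Ccnd2* to 0.0366 after quantile normalization, where *Cd81* was at 0.0469 and *Ddb1* at 0.0119. With a library left out, *Cdkn1b* ranged from −0.0977 to 0.222, *Ccnd2* from −0.092 to 0.0415, *Cd81* from −0.0994 to 0.0372, and *Wee1* from −0.245 to 0.0088. DESeq2 without a prior called 1 of the 10 genes and had 2 at an adjusted *P* under 0.05 (*Cdkn1a* and *Cdk6*), also 2 with a prior. With a library left out, between 0 and 1 of the 10 were called, between 0 and 1 had an adjusted *P* under 0.05, and between 4 and 7 did not overlap, where fewer libraries make a gap more likely by construction. Over all tested genes, limma without the trend called 40 (7 higher and 33 lower) and DESeq2 without a prior 504 (295 higher), and with a library left out 204 to 570 were called, 83 to 305 higher and 105 to 265 lower; the cause was not tested. With the replicate number as a replicate block, 415 genes were called and 1075 of 17404 (6.18%) had an adjusted *P* under 0.05 in limma, among them 1 of the 10, *Cdk4* (0.0338, in a range over all alternatives of 0.0338 to 0.507). Under that block the count was 10 of the later cyclins and kinases, 15 in S phase and 17 in mitosis (2 and 5 without it), 5 of the RB and E2F list, 2 of the DREAM list, 4 of the quiescence list, 2 of the turnover list, and 1 of the CDK-activating kinase and chaperone list. Same-numbered libraries deviated together by correlations of −0.094, 0.246, and 0.147, and 1 of the 3 WT libraries was closest to its own number. Whether a number marks a shared litter or day is not given in the sources used here, and so few correlations cannot decide it. The mice were not treated as paired, and pairing was not resolved.

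With the median transcript length, WT levels per kb were 219 for *Cdkn1a*, 111 for *Cdkn1b*, 690 for *Cdkn2c*, 412 for *Ccnd1*, 29439 for *Cdk4*, and 2074 for *Cdk6*. WT shares within a role were then 11.8% for *Cdkn1a*, 5.96% for *Cdkn1b*, 82.2% for *Cdkn1c*, 15.3% for *Cdkn2c*, 84.7% for *Cdkn2d*, 2.81% for *Ccnd1*, 93.4% for *Cdk4*, and 6.58% for *Cdk6*, because shorter transcripts raise a level per kb. Reads without molecular identifiers are not independent molecules, and *Cdkn1a*, with as few as 134 reads in a library, had the fewest among the 10 genes.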
